A study of Mus musculus with 6 samples.

Results

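The genes of Wnt signalling were described in sciatic nerve of mice at postnatal day 9 (P9). They were chosen by symbol: all *Wnt*, *Fzd*, *Sfrp*, *Dkk* and *Rspo* genes that carry a number, *Lgr4* to *Lgr6*, and 15 further genes of the pathway (*Lrp5*, *Lrp6*, *Axin1*, *Axin2*, *Lef1*, *Tcf7*, *Tcf7l1*, *Tcf7l2*, *Ctnnb1*, *Apc*, *Wif1*, *Frzb*, *Znrf3*, *Rnf43* and *Notum*). This gave 60 of the 46603 genes in the deposited table. Of these, 59 code for protein, and *Rspo4os* is an antisense transcript of the *Rspo4* locus. RNA-Seq libraries were made from sciatic nerves of *Ep400ΔPNS* mice (Dhh::Cre, conditional Ep400) and control mice (conditional Ep400 without the Cre). There were 3 libraries per genotype, and neither the sample titles nor the methods say how many mice gave each. The mice were on a mixed 129SvJ/C57Bl/6J background according to the labels and a C3H and C57Bl/6J one according to the methods. *Ep400* encodes the central subunit of a chromatin remodeling complex, and the Dhh promoter drives Cre in developing Schwann cells (SCs), so that the other cells of a nerve keep the gene. All mice carry the conditional allele.

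The table gives 1 mean per gene over all 6 libraries, so that each level below belongs to the nerves of both genotypes together. *Ep400ΔPNS* and control nerves were not compared here, and the *Ep400* level by genotype was not analysed here. The means sum to 25608535 normalised reads, which is what was counted on genes in an average library. The number of reads sequenced per library, as stated in the paper, is higher. The tissue label was checked against marker genes. The SC markers *Sox10*, *Erbb3* and *Cdh19* were present with means of 11447, 13853 and 3534, as were all 5 fibroblast markers (6784 for *Pdgfra* to 649784 for *Col1a1*), 3 perineurial, 4 endothelial, 4 pericyte and smooth muscle and 5 macrophage markers. The 4 skeletal muscle markers had means of 2671 to 29176, and the 3 adipocyte markers 500 for *Plin1* to 3461 for *Fabp4*. The 4 markers of neuron cell bodies had means of 447 for *Tubb3*, 41.04 for *Snap25*, 4.81 for *Rbfox3* and 1.05 for *Slc17a6*. RNA of a whole nerve does not tell which cells hold a transcript, and fewer cells of a type and less RNA per cell cannot be told apart.

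Wnt proteins are secreted, lipid-modified ligands. They bind Frizzled receptors and the co-receptors Lrp5 and Lrp6, which stops a destruction complex built on Axin and Apc from degrading beta-catenin, and beta-catenin then acts in the nucleus with TCF/LEF factors. Secreted antagonists catch the ligand or the co-receptor, while R-spondins and their Lgr receptors keep the E3 ligases Znrf3 and Rnf43 from removing Frizzled receptors. In SCs, Wnt signalling is known for roles in lineage progression and myelin gene expression.

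Of the 60 genes, 45 (75.0%) had a mean of at least 10 normalised reads, compared to 36.5% of all genes in the table. Another 13 lay above 0 and below 10, and *Wnt8a* and *Dkk4* were at 0. No read in 6 libraries allows up to 3 reads, which is a mean of at most 0.551. The median mean of the 58 genes above 0 was 306, against 21.4 over all 30644 genes above 0. All genes here include some that do not code for protein, such as *Mir7090*, whereas 59 of the 60 genes do. These comparisons were not restricted to coding genes. Means of at least 1000 were found for 18 of the genes. The lowest of these, *Znrf3* with 1019, lay above 84.8% of all 30644 genes above 0, so many other genes reach such means too. The 60 genes together held 0.272% of all normalised reads, and *Ctnnb1*, *Apc* and *Lrp6* made up 42.3% of that.

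To compare genes with each other, means were divided by the length of all annotated exons and scaled to the same fixed sum as in the usual unit TPM, in which 1 unit is the same share of all transcripts for every gene. By this measure the roles differed widely. The secreted antagonists summed to 669 TPM over 11 genes and the 10 Frizzled receptors to 313 TPM, compared to 80.8 TPM for all 19 Wnt ligands. Transcripts of these 11 antagonist genes were thus 8.28 times as abundant as ligand transcripts, and Frizzled transcripts 3.87 times. Of the antagonist sum, 45.4% came from *Sfrp5*, and *Dkk3* is counted in it with 101 TPM. *Sostdc1*, a secreted antagonist outside the chosen genes, had 296 TPM and is not counted. Beta-catenin alone reached 379 TPM, the TCF/LEF factors 123 TPM and the R-spondins 67.0 TPM. Since the table has no spread for these means, no test was made between them.

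**Figure D1:**
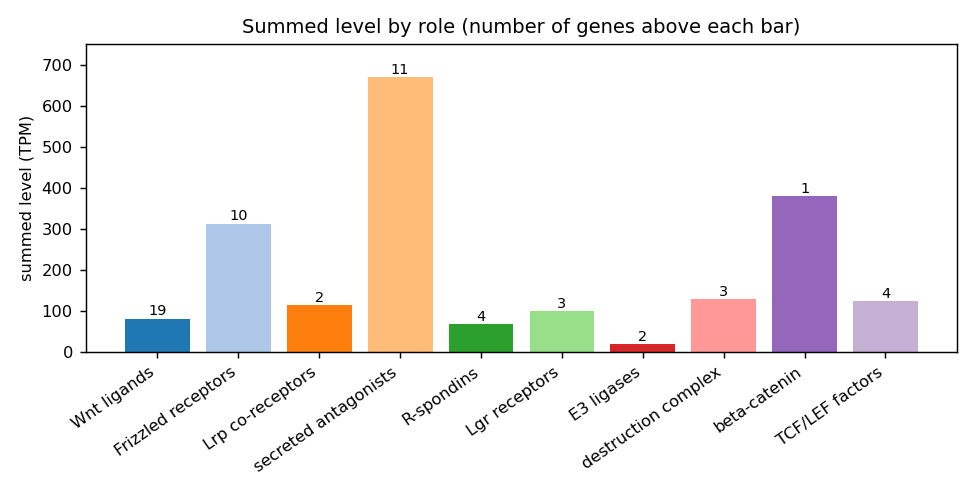
Summed level in TPM (vertical axis, from 0) of the genes of each role in the pooled mean of 6 P9 sciatic nerve libraries, with the number of genes above each bar. The 11 secreted antagonists sum to 669 TPM and the 19 ligands to 80.8 TPM.

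Few Wnt ligands carried most of the ligand transcripts. *Wnt6* was the highest with a mean of 529 and 35.6 TPM, or 44.1% of the ligand sum. *Wnt5a*, which typically signals without beta-catenin, had the higher mean of 632 but a longer transcript, and reached 11.9 TPM. *Wnt2b*, *Wnt9a* and *Wnt2* followed with means of 287, 174 and 81.2 and levels of 10.1, 7.69 and 5.31 TPM. These 5 ligands together made up 87.4% of the ligand sum. The next were *Wnt5b*, *Wnt10a*, *Wnt10b*, *Wnt11* and *Wnt16*, with means of 45.4, 37.9, 51.6, 35.5 and 18.7, which is 2.52, 2.26, 2.24, 1.27 and 0.633 TPM. The median level of all genes above 0 was 2.18 TPM, so that 8 of the 19 ligands lay above it in the pooled mean. *Wnt5b*, *Wnt10a* and *Wnt10b* lay close to this median, and their place above it may depend on single libraries. With 1 library left out, their means were as low as 39.1, 30.6 and 44.25. In mm10, *Wnt6* lies on the plus strand of chromosome 1 from 74771892 to 74785322 and *Wnt5a* on chromosome 14 from 28504750 to 28527448. The remaining 8 ligands with reads, *Wnt1*, *Wnt4*, *Wnt7b*, *Wnt8b*, *Wnt3*, *Wnt7a*, *Wnt9b* and *Wnt3a*, had means of 0.458 to 9.70. *Wnt3a* and *Wnt1*, both textbook activators of beta-catenin, were at 0.0245 and 0.421 TPM.

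**Figure D2:**
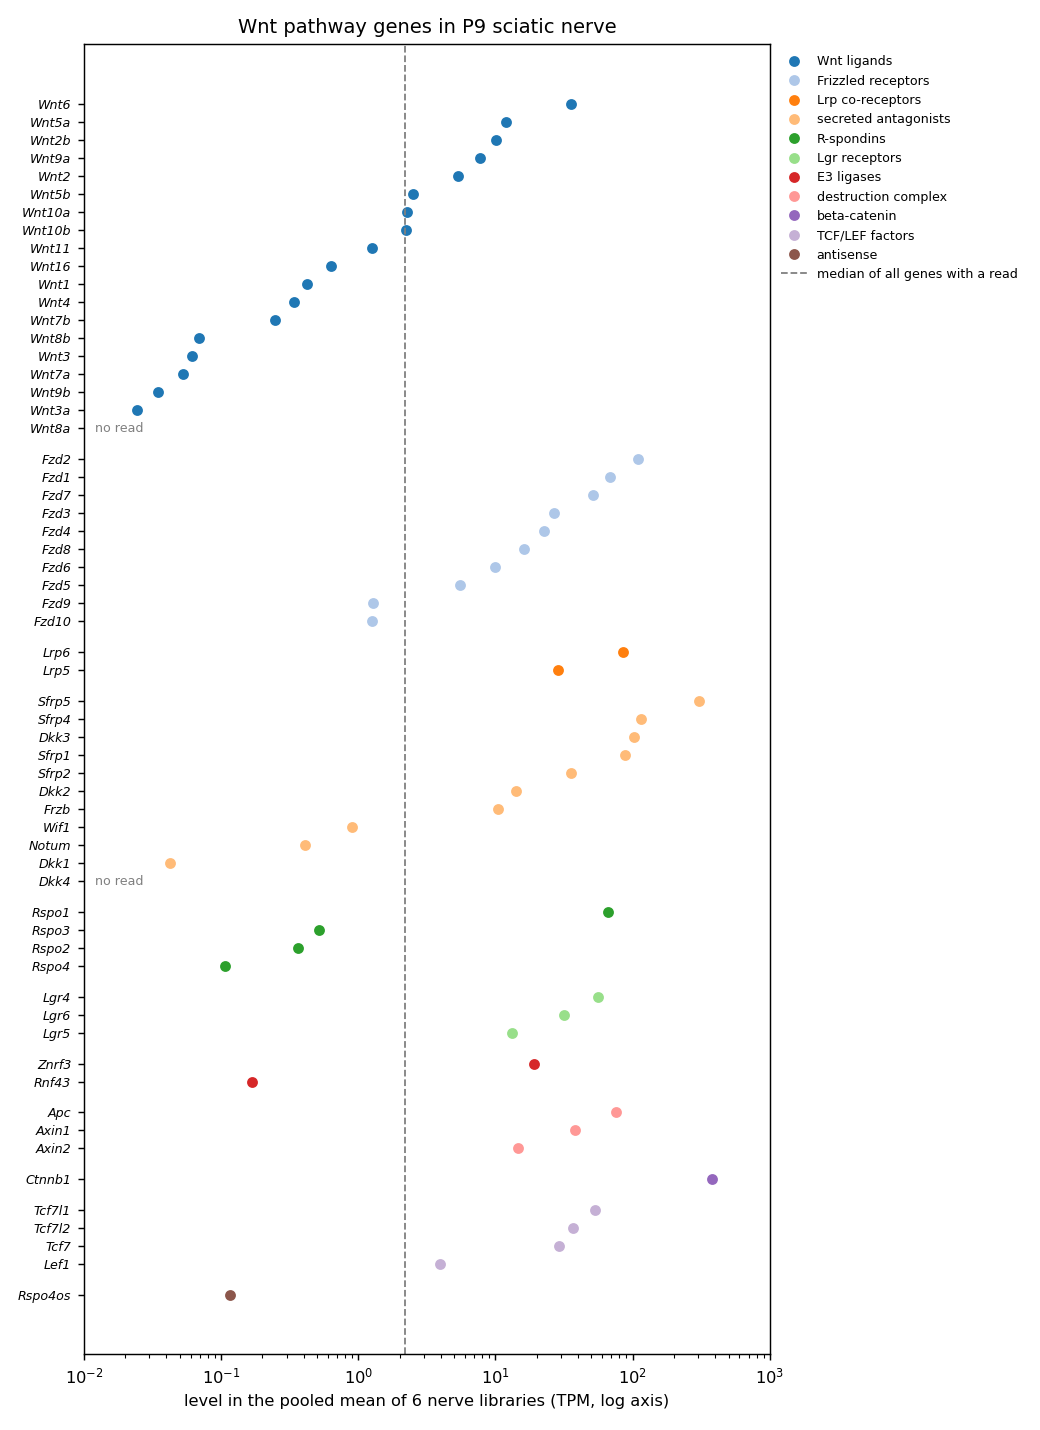
Level of each gene in TPM (horizontal log axis), grouped by role and ordered within it, in the pooled mean of 6 P9 sciatic nerve libraries. The dashed line is the median of all genes with a read, 2.18 TPM, and genes at 0 are marked as having no read. Ligands spread from 0.0245 to 35.6 TPM, while *Sfrp5* stands at 304 TPM and *Ctnnb1* at 379 TPM.

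Several *Wnt* genes lie side by side in the genome, and in 3 of 4 such pairs the neighbours were present at different levels. *Wnt9a* and *Wnt3a* lie on opposite strands of chromosome 11, 16.2 kb apart with no protein-coding gene between them. *Wnt9a* had a mean of 174 and *Wnt3a* one of 0.458, which is 3 reads in all. *Wnt6* and *Wnt10a* follow each other on the plus strand of chromosome 1 with 6.19 kb between them, and *Wnt6* was 15.7 times as abundant per length. *Wnt10b* and *Wnt1* lie 11.7 kb apart on chromosome 15, with 2.24 and 0.421 TPM. In the last pair, 24.3 kb apart on chromosome 11, both were near 0, *Wnt3* at 0.0614 TPM (8 reads, exact 95% Poisson interval 3.45 to 15.8) and *Wnt9b* at 0.0348 TPM (7 reads, 2.81 to 14.4). Such intervals cover counting error only.

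**Figure D3:**
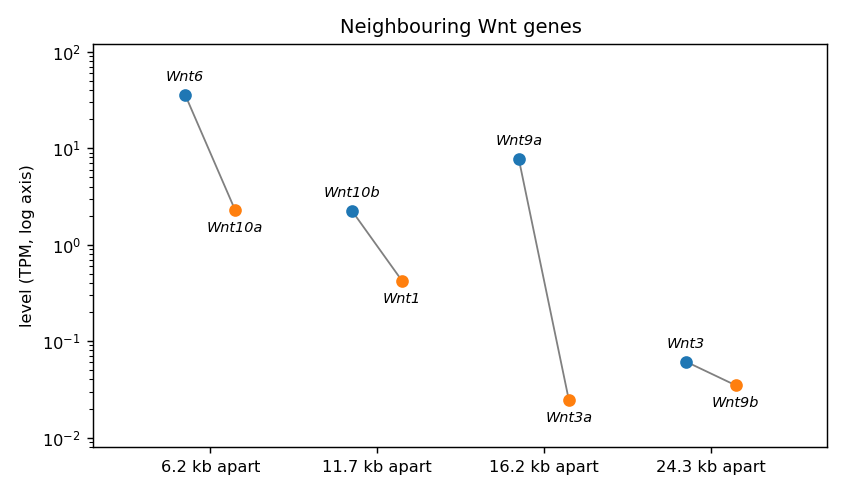
Level in TPM (vertical log axis) of the 4 pairs of neighbouring *Wnt* genes, with the distance between the genes below each pair and a line joining its members. *Wnt9a* stands at 7.69 TPM and *Wnt3a* at 0.0245 TPM, whereas *Wnt3* and *Wnt9b* both lie below 0.1 TPM.

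The promoters of both genes of 2 such pairs were read from RefSeq (GRCm38.p6, the assembly of mm10) to show what lies before a gene with more reads and before its neighbour with few. Each line holds the 250 bases before the start, 5′ to 3′ on the strand of the gene, with CpG dinucleotides in capitals. *Wnt9a* (chr11:59306680-59306929, plus strand) has 48 CpG in them, *Wnt3a* (chr11:59290752-59291001, minus strand) 41, *Wnt10b* (chr15:98778151-98778400, minus strand) 14 and *Wnt1* (chr15:98789607-98789856, plus strand) 23.
Wnt9a: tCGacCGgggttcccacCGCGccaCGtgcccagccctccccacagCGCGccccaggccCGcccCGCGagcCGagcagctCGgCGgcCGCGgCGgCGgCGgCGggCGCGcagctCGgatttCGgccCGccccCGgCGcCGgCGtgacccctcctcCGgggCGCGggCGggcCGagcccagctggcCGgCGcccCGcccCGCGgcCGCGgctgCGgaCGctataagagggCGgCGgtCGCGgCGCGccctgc
Wnt3a: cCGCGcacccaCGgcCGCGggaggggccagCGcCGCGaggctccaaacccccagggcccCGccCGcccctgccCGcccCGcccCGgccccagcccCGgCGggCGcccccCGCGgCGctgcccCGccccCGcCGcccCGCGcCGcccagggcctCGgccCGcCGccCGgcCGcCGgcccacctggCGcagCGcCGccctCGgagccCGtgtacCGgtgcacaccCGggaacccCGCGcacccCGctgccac
Wnt10b: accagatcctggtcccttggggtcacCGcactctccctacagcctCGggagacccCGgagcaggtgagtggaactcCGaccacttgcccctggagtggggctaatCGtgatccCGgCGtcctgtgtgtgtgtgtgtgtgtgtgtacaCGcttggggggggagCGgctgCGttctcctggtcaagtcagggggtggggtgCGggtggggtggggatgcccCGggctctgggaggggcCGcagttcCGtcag
Wnt1: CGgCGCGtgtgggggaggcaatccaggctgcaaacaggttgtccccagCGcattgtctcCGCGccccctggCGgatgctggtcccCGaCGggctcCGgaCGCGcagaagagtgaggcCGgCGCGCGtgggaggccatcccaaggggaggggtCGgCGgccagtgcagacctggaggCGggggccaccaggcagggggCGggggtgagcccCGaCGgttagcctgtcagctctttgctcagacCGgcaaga

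Promoter windows of 300 bases, with 50 bases after the start, were found for 38 of the 60 genes in the set of promoters used. Genes without a window in that set, among them *Apc*, *Lrp6*, *Fzd2*, *Sfrp4*, *Dkk3* and *Wnt5a*, are missing from the counts below. CpG-rich windows stood before genes with many reads and before genes with few. The 28 genes that reached a mean of 10 had a median of 30 CpG (10 to 58), and the 10 genes below that mean one of 27.5 (6 to 51), against 7 over all 32851 promoters in the table. *Wnt9a* had 58 CpG in this window and *Wnt3a* 45. *Wnt4*, with a mean of 9.70, had 51 CpG, whereas *Sfrp5*, with a mean of 3913, had 15. The letters that TCF/LEF factors prefer, searched on both strands as CTTTGAA and as CTTTGAT, as well as CTTTGTA and also CTTTGTT, were in 4 of the 38 windows (10.5%), those of *Dkk1*, *Fzd7*, *Wnt11* and *Wnt3*, and in 16.9% of all promoters. They were not in the window of *Axin2*, a textbook target of the pathway. These matches are a description of the sequence only.

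**Figure D4:**
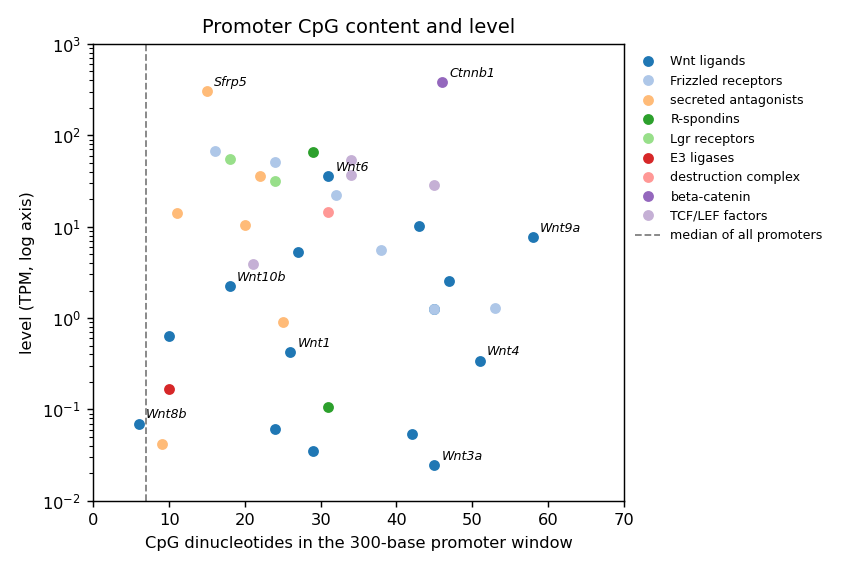
Number of CpG dinucleotides in the 300-base promoter window (horizontal axis) and level in TPM (vertical log axis) of the 38 genes found in the set of promoters used, coloured by role. The dashed line marks the median of all promoters, 7. Genes with 40 or more CpG range from *Wnt3a* at 0.0245 TPM to *Ctnnb1* at 379 TPM.

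All 10 Frizzled receptor genes were present with means of at least 10. *Fzd2*, on chromosome 11 of mm10 from 102604396 to 102608058, was the highest with a mean of 2725 and 110 TPM, which is 35.1% of the Frizzled sum. *Fzd1* and *Fzd7* followed with means of 1939 and 1579 and levels of 68.2 and 51.4 TPM, so that 3 receptors made up 73.3% of the sum. *Fzd3*, a receptor best known from axon guidance, had the higher mean of 2306, but its exon length of 12804 bases gave 26.6 TPM. *Fzd4*, *Fzd8*, *Fzd6* and *Fzd5* had means of 1025, 656, 325 and 260 (22.5, 16.2, 9.94 and 5.55 TPM). *Fzd9* and *Fzd10* were lowest, at 1.29 and 1.26 TPM. Of the 10 genes, 6 have a single exon in their longest transcript. Of the co-receptors, *Lrp6* had a mean of 7927 and 85.5 TPM and *Lrp5* a mean of 1871 and 28.3 TPM, a ratio of 3.02. This ratio was 4.02 per length of the longest transcript and 4.24 without a length.

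Secreted antagonists were dominated by the Sfrp family, whose members resemble the ligand-binding domain of Frizzled receptors. *Sfrp5* (mm10 chromosome 19, 42197971 to 42202252, minus strand) was the most abundant with a mean of 3913 and 304 TPM, above 98.9% of the genes with reads. *Sfrp4*, *Sfrp1*, *Sfrp2* and *Frzb* had means of 3232, 2613, 518 and 230, which is 114, 88.2, 35.5 and 10.5 TPM. Together the 5 genes of this family reached 552 TPM. Among the Dickkopf genes, *Dkk3* had a mean of 2310 and 101 TPM. It is the member of its family that does not act as a typical Lrp inhibitor. The 3 others, which bind Lrp5 and Lrp6, summed to 14.1 TPM, nearly all of it from *Dkk2* with a mean of 352 and 14.0 TPM. *Dkk1* had 4 reads in all (exact 95% Poisson interval 1.09 to 10.2), 2 of them in 1 library without which its mean of 0.697 was 0.422, and *Dkk4* had none. *Wif1*, which binds Wnt proteins, and *Notum*, an enzyme that removes their lipid, were low, at 0.904 and 0.407 TPM. Of the exon bases of *Notum*, 29.4% overlap its antisense gene on the other strand, which had a mean of 0.358.

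The R-spondin genes were present almost only as *Rspo1*, with a mean of 867 and 66.0 TPM, or 98.5% of the family. *Rspo3*, *Rspo2* and *Rspo4* had means of 10.8, 12.6 and 1.71, all below 1 TPM. The antisense *Rspo4os* had a mean of 1.01 and shares no annotated exon sequence with *Rspo4*. All 3 genes for their receptors were present, with means of 2209 for *Lgr4*, 1461 for *Lgr6* and 911 for *Lgr5*, a stem cell marker in other tissues (55.4, 31.5 and 13.1 TPM). The E3 ligase *Znrf3* had a mean of 1019 and 19.0 TPM. Its relative *Rnf43* was at 0.168 TPM with a mean of 7.48, which is 44 reads in all.

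Inside the cell, *Ctnnb1*, the beta-catenin gene, had the highest mean of all 60 genes, with 13338. Of its exon bases, 14.6% overlap *Ulk4* on the other strand, with a mean of 190. *Apc*, *Axin1* and *Axin2* of the destruction complex had means of 8253, 978 and 544, which is 75.5, 37.7 and 14.6 TPM. *Axin2*, on chromosome 11 of mm10 from 108920349 to 108950783, is both a part of the complex and a feedback target of the pathway. The TCF/LEF factors reached 53.5 TPM for *Tcf7l1*, mostly a repressor, 36.5 TPM for *Tcf7l2*, 28.9 TPM for *Tcf7* and 3.95 TPM for *Lef1*, with means of 1422, 2169, 515 and 235. The order of *Tcf7l1* and *Tcf7l2* depended on the length used. *Tcf7l2* had 0.682 times the level of *Tcf7l1* per length of all exons and 1.25 times per length of the longest transcript. *Lef1* was the lowest of the 4 under both.

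A further 53 genes of Wnt signalling, chosen by hand and not a full set of the pathway, were looked up as well. Of these, 50 had a mean of at least 10, compared to 36.5% of all genes in the table. The median was 1304 over all 53. *Gpc3*, a cell surface proteoglycan gene, was the highest with a mean of 17442, followed by the kinase genes *Csnk1a1* and *Gsk3b* with 7721 and 5121. *Sostdc1*, which encodes a further secreted antagonist, had a mean of 3579 and 296 TPM, next to *Sfrp5* with 304 TPM. The machinery that makes and exports Wnt proteins was present, with means of 135 for the acyltransferase gene *Porcn* and 1736 for the carrier gene *Wls*. The 3 genes below 10 were *Sost*, *Kremen2* and *Dkkl1*, with 2.19, 2.02 and 0.676. *Ror1*, *Ror2* and *Ryk*, alternative Wnt receptors, had means of 580, 514 and 2205.

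The reads of each single library could be recovered for genes with few reads. A mean of 6 counts, each divided by its own size factor and printed with 15 digits, comes from only 1 set of 6 whole read numbers while the mean is low. The values of 1 read in each library gave size factors between 0.908 and 1.201, and the libraries were named A to F from the highest size factor to the lowest. They carry no label of genotype, none was inferred, and they were not compared as groups. All 24 genes of the pathway with a mean above 0 and of at most 85 had 1 solution. For genes with a higher mean, the spread between libraries is not known.

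The ligand genes with the most recovered reads were *Wnt2*, *Wnt10b*, *Wnt5b*, *Wnt10a* and *Wnt11*. *Wnt2* had 59.96, 43.96, 42.5, 129, 106 and 106 normalised reads in libraries A to F, so that D, E and F held the high values. *Wnt10b* had 35.8, 43.1, 62.1, 38.4, 41.9 and 88.1, with the highest value in F. *Wnt5b* had 35.8, 33.0, 43.5, 47.7, 35.5 and 77.1, also highest in F. *Wnt10a* was uneven, with 18.3, 21.1, 31.1, 50.8, 74.1 and 31.9 and the highest value in E. *Wnt11*, which like *Wnt5a* mostly signals without beta-catenin, was the most even of the 24 genes, with 29.98, 32.1, 32.1, 34.2, 44.04 and 40.7. *Wnt16* ranged between 6.66 in library A and 33.1 in library C.

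The rarer ligands were spread less evenly over the libraries than *Wnt11*, but they also had fewer reads than the 213 of *Wnt11*. *Wnt4* had 1.67, 3.66, 6.21, 5.19, 15.04 and 26.4 normalised reads in libraries A to F, with 45.4% of its level in F, and its mean was 6.35 without that library. *Wnt1* had 0, 2.75, 13.5, 5.19, 18.3 and 1.101, with most reads in C and E and a mean of 4.50 without E. *Wnt7b* had 7.49, 13.7, 3.11, 7.26, 1.07 and 16.5. It shares 6.61% of its exon bases with *AU022754* on the other strand, which had the higher mean of 20.6. The 5 ligands with the fewest reads, *Wnt8b*, *Wnt3*, *Wnt7a*, *Wnt9b* and *Wnt3a*, had 10, 8, 8, 7 and 3 reads in all. All 3 reads of *Wnt3a* lay in library B and 7 of the 8 of *Wnt7a* in library A, whereas library A held 3 and D 5 of the 8 of *Wnt3*. For the 14 ligands with recovered reads, each neighbour in the order per length overlapped with the next in its range over the libraries (13 of 13 pairs). Genes further apart in that order could be separate, as *Wnt2*, with 18.8 to 57.0 normalised reads per kb of exon, was from *Wnt11*, with 7.25 to 10.65. The means of *Wnt3*, *Wnt7a* and *Wnt9b* were 0.500 without library D, 0.207 without A and 0.613 without A.

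**Figure D5:**
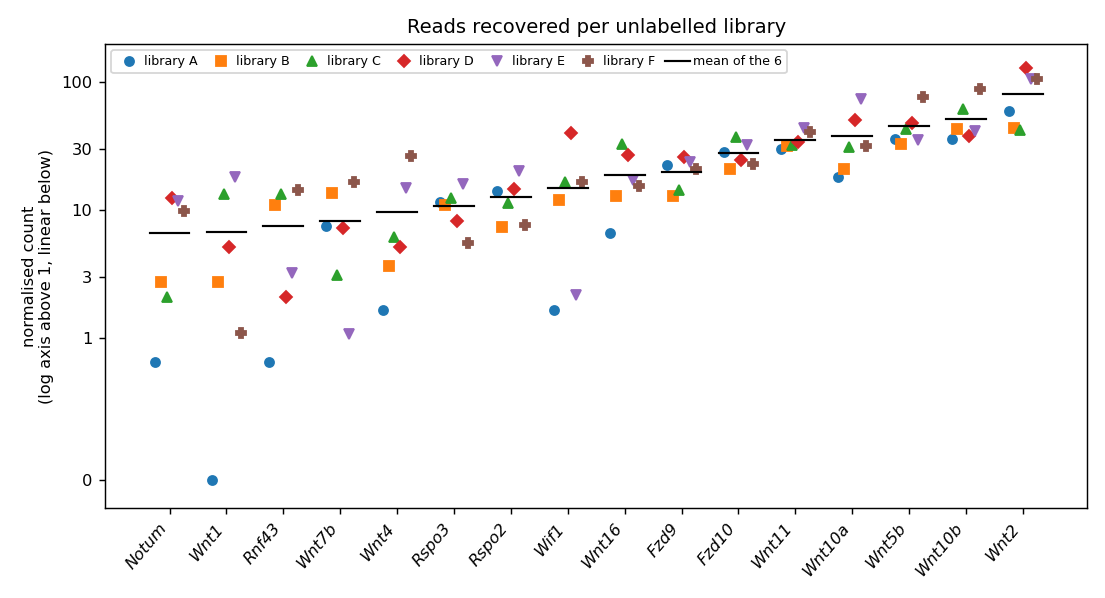
Normalised count in each of the 6 unlabelled libraries (symbols, vertical axis logarithmic above 1 and linear below) and their mean (black line) for the 16 genes with a mean of 5 to 85. *Wnt11* lies between 29.98 and 44.04 in all libraries, while *Wif1* spreads from 1.67 to 40.4.

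Both rare Frizzled genes were even across libraries, with 12.8 to 25.9 normalised reads for *Fzd9* (median 21.7) and 21.1 to 37.3 for *Fzd10* (median 26.6). Their ranges per length overlapped. Among the antagonists, *Wif1* had 1.67, 11.9, 16.6, 40.4, 2.15 and 16.5 in libraries A to F. Library D held 45.3% of it, and its mean was 9.76 without that library. *Notum* had 0.833, 2.75, 2.07, 12.4, 11.8 and 9.91, so that its reads lay mostly in D, E and F. The E3 ligase gene *Rnf43* had 0.833, 10.99, 13.5, 2.07, 3.22 and 14.3, with high values in B, C and F.

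Evenness cannot be compared among the rare R-spondin genes, since *Rspo3* and *Rspo2* had 66 and 76 reads in all and *Rspo4* far fewer. *Rspo3* had 5.51 to 16.1 normalised reads (median 11.3) and *Rspo2* 7.33 to 20.4 (median 12.8), both with reads in every library. *Rspo4* had 10 reads in all (exact 95% Poisson interval 4.79 to 18.4), 5 of them in library D and none in A and C, and its mean was 1.02 without D. The 6 reads of *Rspo4os* lay in libraries B and F, 3 in each, and its mean was 0.550 without F. Over the 9 pathway genes with a mean of 5 to 20, the highest library held a median of 31.9% of a gene's normalised reads. Over all 3220 genes of that range the median was 32.0%. Libraries A and B were each the highest for none of the 9 genes, and for 407 and 395 of the 3220 genes of that range. Library B held a median of 11.4% of the reads of the 9 genes, compared to 14.6% over all genes of that range. Library A held a median of 2.86% of the reads of the 9 genes, compared to 13.9% over all genes of that range. Not all 9 were low there, as *Rspo2* and *Rspo3* lay above their means in A, with 14.2 and 11.7 normalised reads. Whether the 9 genes differ from other genes in this was not tested.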

How the data were processed

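Total RNA of sciatic nerves was made into stranded mRNA libraries (Ep400 cko and ctrl, 3 each). Per the methods, the authors used STAR (version 2.5.1 per the submitters' notes) for alignment to mm10 and HTSeq for uniquely mapped reads per gene, followed by DESeq2. The deposited signal used here is the authors' mean per gene over all 6 libraries of counts divided by size factors. Its header calls it raw, but its lowest values form 6 steps of different size, which raw counts would not. The header names Ensembl release 82 and the methods a later one. No source used here says whether counting used strand, so genes whose exons overlap one on the other strand (12 members, among them *Sfrp2*, *Lef1*, *Fzd5* and *Notum*) are uncertain. The table also holds the authors' own comparison (log2 fold change, standard error, Wald statistic, p-values and a linear ratio), which was not used. It has 0 columns for single libraries, so the count test planned for *Ep400ΔPNS* over control nerves was not run.

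Exon lengths and coordinates came from GENCODE M21 on GRCm38, to which 46091 of 46603 gene IDs and all 60 members matched. TPM were computed from the pooled means. Precision of pooled means is not known. Reads per library were recovered from each mean by searching all sets of 6 whole numbers whose scaled sum equals the printed value within its rounding. Tested on simulated data, this recovered 120 of 120 sets for means of 1 to 40 and 3 of 5 for a mean of 80, with 0 wrong sets given as the only solution. The simulated means were built with the same size factors that the search used, so error in these factors was not covered. *Wnt2*, with a mean of 81.2, had 1 solution but lies near the mean at which 3 of 5 sets were recovered. Members, roles and lists were chosen with earlier results of these data known. Every member that reaches a mean of 10 is named with values, and the others by name or range. Alternatives were minimum means of 1 and 50 or none, the length of the longest transcript or no length, percentiles among genes that reach 10, a tolerance 3 times wider and leaving out each library. Python 3.11.15 with numpy 2.4.6, scipy 1.17.1 and matplotlib 3.10.9 was used.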

Additional observations from a re-analysis of the deposited data

How the results depend on the processing

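The number of members detected was 45 at a mean of at least 10, and it was 56, 36 and 58 at a mean of at least 1, of at least 50 and above 0. Secreted antagonists had 8.28 times the level of ligands per length of all exons, 7.64 times per length of the longest transcript and 6.86 times without a length. For Frizzled receptors over ligands these values were 3.87, 3.55 and 5.65. Without a length, several orders turned round, with *Wnt6* at 0.838 times *Wnt5a* and *Fzd1* at 0.841 times *Fzd3*. By mean, *Wnt10b* also lay above *Wnt5b* and *Wnt10a*, *Fzd3* above *Fzd7*, *Fzd10* above *Fzd9* and *Rspo2* above *Rspo3*. *Tcf7l2* was at 1.25 times *Tcf7l1* per length of the longest transcript and at 1.53 times without a length. *Lgr4* was at 4.23 times *Lgr5* per length of all exons, 2.30 times per length of the longest transcript and 2.42 times without a length. The median percentile of the members was 70.2 among genes with a mean above 0, and 62.2 for those that reach 10 among genes with a mean of at least 10. Reads were recovered for 24 members at both tolerances. Of these, 11 reached a mean of 10 with all libraries, and between 10 and 12 when 1 library was left out. No paired analysis was possible because the table has no columns for single libraries. For the same reason, the count test of *Ep400ΔPNS* over control nerves was not run with TMM, with DESeq2 size factors, with the replicate block or without single replicates. Depth limits the rarest genes, since a gene with 10 reads in all has a counting interval of 4.79 to 18.4 reads.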

Other observations

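Values of the 6 unlabelled libraries were uneven for *Celsr3*, 1 of the 53 further genes of Wnt signalling chosen by hand. This gene, which encodes an atypical cadherin of planar cell polarity, had 74.9, 88.8, 65.2, 8.30, 7.52 and 18.7 normalised reads in libraries A to F. It is a single gene, and how many others spread like it was not counted. The libraries cannot be assigned to genotypes from the data used here, and no groups were formed from them.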
